A study of Saccharomyces cerevisiae with 12 samples.

Results

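The small subunit processome genes of budding yeast were examined in cells that carry an SPT6 allele without the tandem SH2 domain (tSH2Δ) and in wild-type cells (WT). They were chosen by gene ID from a written list of U3 snoRNP proteins, UTP proteins and other factors that process the precursor of the small ribosomal subunit. The list holds 32 of the 6571 genes in the deposited table, and all 32 matched a RefSeq gene of the same ID. The choice used no measured value, but it was made with earlier results of these data known.

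The processome is a large nucleolar particle that assembles on the ribosomal RNA precursor while RNA polymerase I is still making it. Its U3 small nucleolar RNA pairs with the precursor, and its proteins fold, modify and cut the part that becomes the RNA of the small subunit. In yeast, genes for such factors belong to the ribosome biogenesis regulon, whose mRNA levels follow growth conditions.

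RNA was sequenced from 3 tSH2Δ libraries and 3 WT libraries of Saccharomyces cerevisiae, both labelled strain S288C. The cultures grew untreated in rich glucose medium (YPD) from an optical density of 0.2, for 4 h by one label and to an optical density of 1 by another. Spt6 chaperones histones during transcription, and the domain that is missing in tSH2Δ binds RNA polymerase II. The study asked what Spt6 does in mRNA turnover, and steady-state RNA does not separate synthesis from decay. The labels say neither how many clones stand for tSH2Δ nor whether replicates were grown separately. Every p-value therefore reflects only the scatter among these 6 libraries, which may be technical. The 6 ATAC-seq libraries were not analysed here.

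The libraries held 20483931 to 27069700 reads, and a processome gene had between 1384 and 28726 of them in a library. SPT6 (YGR116W) had 85.4, 83.8 and 84.3 rescaled RPKM in the tSH2Δ libraries, against 174, 182 and 185 in the WT libraries, as a mean over the whole gene with the deleted part included. RPKM is a read count scaled to gene length and library size, and rescaled RPKM is RPKM divided by a factor per library that sets the median gene equal across libraries. On RPKM as deposited the median gene stood 0.57 higher in tSH2Δ on the log2 scale, so each direction below is relative to the median gene unless deposited values are named. RPKM gives a share of each library's RNA, so less RNA of a gene per cell and more RNA of other genes cannot be told apart. Values are compared as log2 fold changes, tSH2Δ over WT, on the log2(RPKM + 1) scale, and a gene was called at a limma adjusted p under 0.05 over the 6307 genes tested.

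All 32 processome genes were tested and all 32 were lower in tSH2Δ than in WT relative to the median gene (limma, largest adjusted p = 0.000435 for UTP15). Over all genes tested 41.9% were called lower and 41.6% higher, 83.5% in either direction. The median log2 fold change of the 32 was -0.78, against 0.01 for all genes tested, and single genes ranged from -1.54 (NOP56) to -0.36 (RCL1). For each of the 32, the 3 rescaled tSH2Δ values lay below the 3 WT values, which held for 42.2% of all genes tested. A log2 fold change of -1 or less was reached by 11 of the 32 and by 9.5% of all genes tested.

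On RPKM as deposited the picture was mixed. There 22 of the 32 were called lower, 4 were called higher and 6 were not called, while 17.3% of all genes tested were called lower and 72.4% higher, 89.7% in either direction. The 4 called higher were UTP15 (0.22), RCL1 (0.22), BFR2 (0.22) and IMP3 (0.17). The not called genes were UTP9, PWP2, UTP22, MPP10, IMP4 and SOF1, between -0.09 and 0.08. The median of the 32 was -0.21, against 0.57 for all genes tested. The 4 scalings tried were the median gene, RPKM as deposited, quantile normalization, and the summed RPKM of all but ribosomal protein genes. Of the 32, 22 were called lower under each of the 4, and the log2 fold change of 25 was negative under all 4. In that order, 41.9%, 17.3%, 41.1% and 20.8% of all genes tested were called lower. The share of all genes lower, or negative, under all 4 was not computed. The authors' deposited table, which lists genes with adjusted p up to 0.0495 and a log2 ratio at least 0.5 from 0, holds 9 of the 32, all as lower, where it lists 7.38% of all genes as lower. These 9 were NOP56, BMS1, RRP5, NOP1, UTP20, NOP58, KRE33, ROK1 and UTP10, with log2 ratios of -0.96 to -0.50 in the authors' deposited table.

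**Figure D1:**
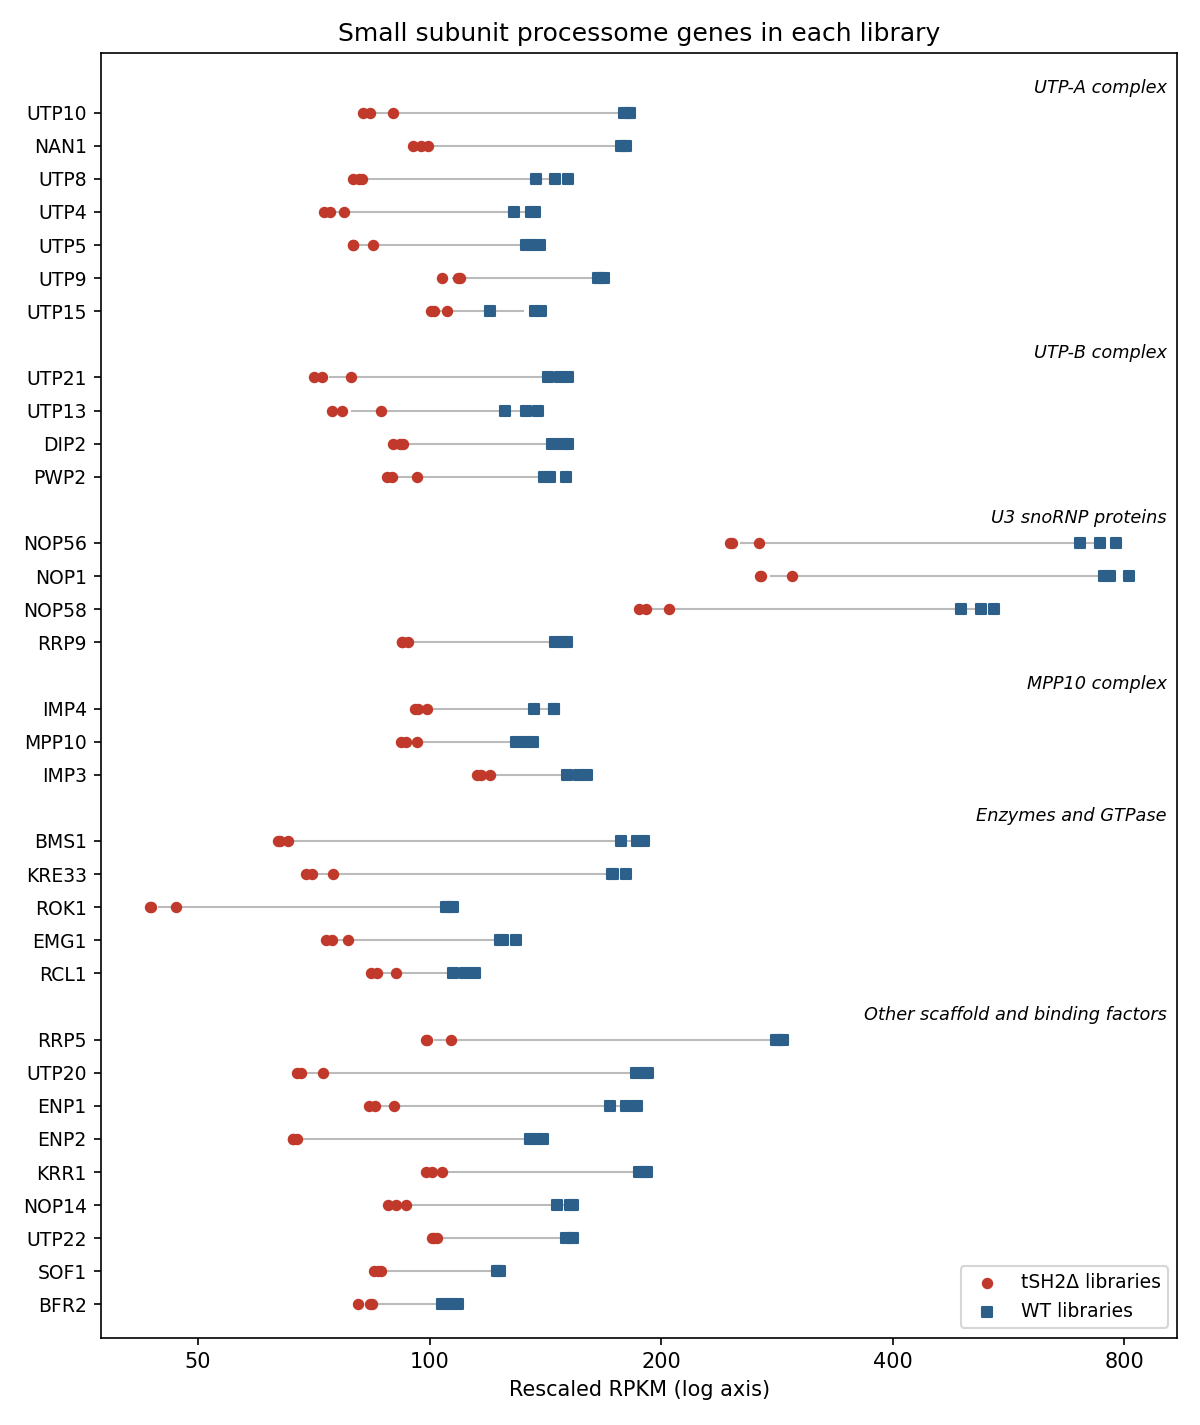
Rescaled RPKM (log axis) of each of the 32 processome genes, ordered by role and fold change, with tSH2Δ libraries as red circles, WT libraries as blue squares and a grey line between the group means. In every row the 3 circles lie left of the 3 squares, and the WT libraries of NOP1, NOP56 and NOP58 lie far to the right of the other rows.

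**Figure D2:**
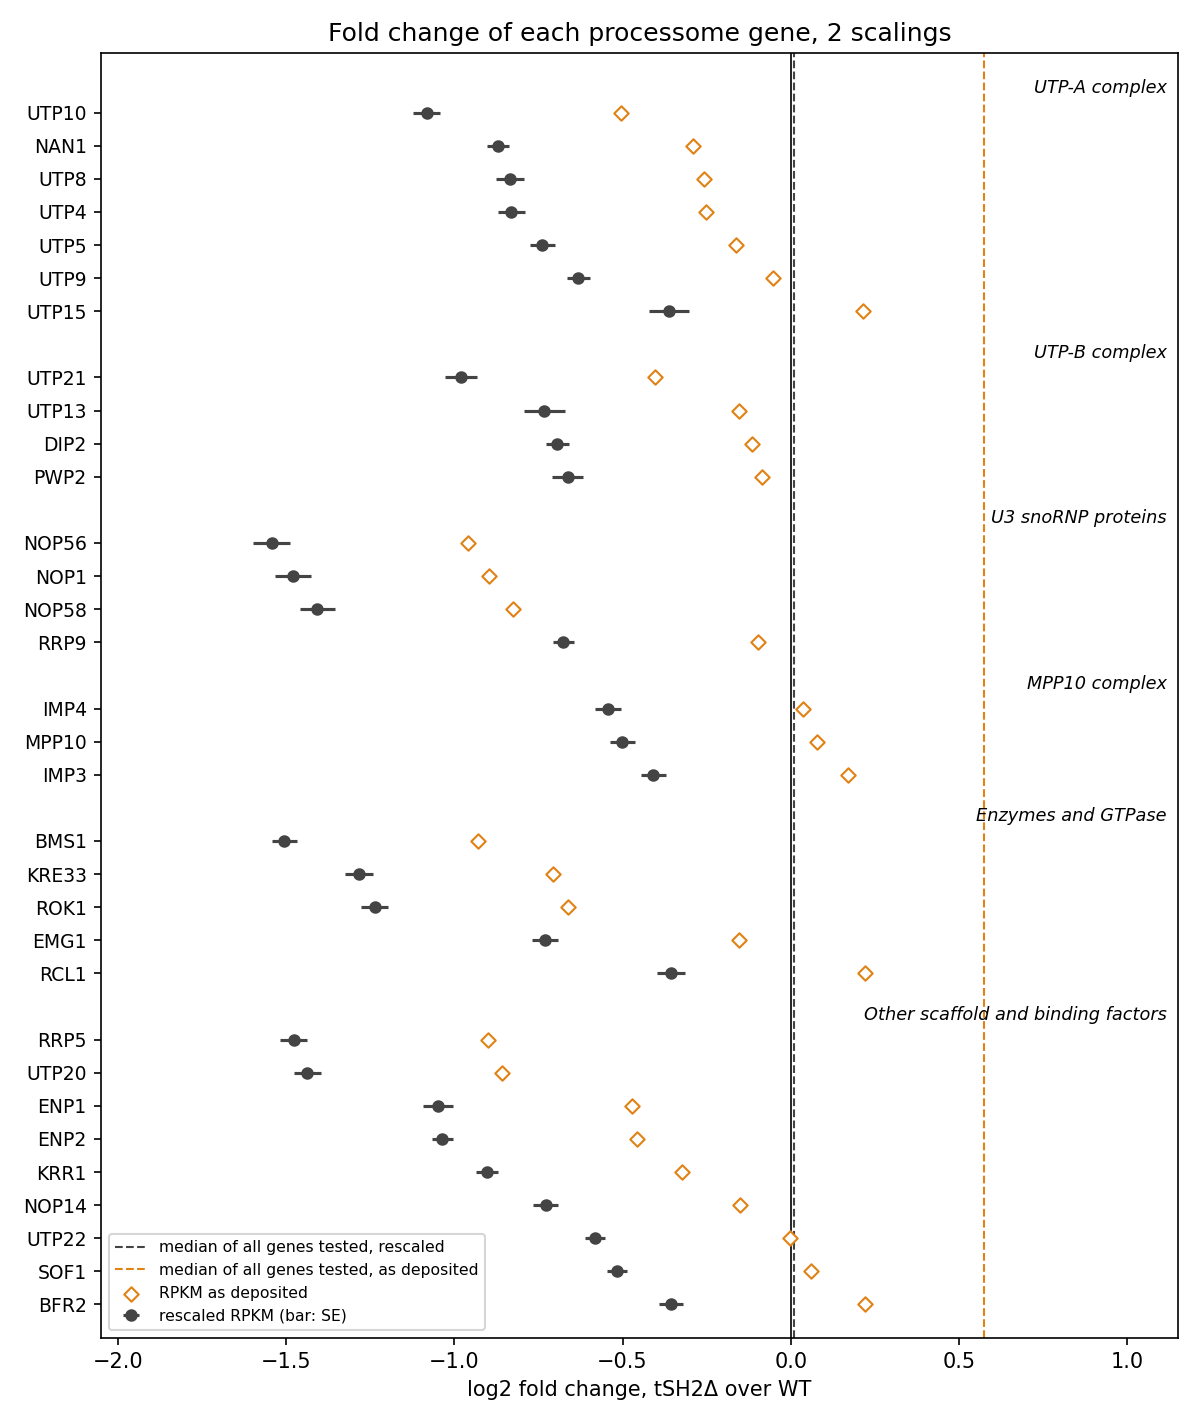
Log2 fold change (tSH2Δ over WT) of each gene on rescaled RPKM (filled circles, bars are SE) and on RPKM as deposited (open diamonds), with dashed lines at the medians of all genes tested, 0.01 and 0.57. Each point lies left of the dashed line of its own scaling, while 7 of the diamonds lie right of 0.

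The share of the summed RPKM that these genes take up needs no factor between libraries, but it depends on which genes make up the total. The 32 genes held 0.471%, 0.472% and 0.478% of the summed RPKM in the tSH2Δ libraries, against 0.643%, 0.641% and 0.653% in the WT libraries. The tSH2Δ share was 0.733 of the WT share, and the groups did not overlap. NOP1, NOP56 and NOP58 alone held 0.107% ± 0.00319 in tSH2Δ and 0.203% ± 0.00476 in WT (SD, n = 3 each), a ratio of 0.527. The other 29 held 0.367% ± 0.000846 in tSH2Δ and 0.443% ± 0.00904 in WT (SD, n = 3 each), a ratio of 0.828. The summed share of the ribosomal protein genes was lower too, 15.2% ± 0.621 in tSH2Δ, against 20.2% ± 0.525 in WT (SD, n = 3 each). With these genes left out of the total the processome share was 0.559% in tSH2Δ and 0.810% in WT.

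Among the U3 snoRNP proteins, the 3 shared by all box C/D particles had the highest WT levels of the 32 genes. They were among the 6 lowest log2 fold changes relative to the median gene but not after quantile normalization, where NOP56 (-0.80), NOP58 (-0.75) and NOP1 (-0.70) stood above BMS1 (-1.32), ROK1 (-1.24) and UTP20 (-1.22). NOP56 (YLR197W, chromosome XII, 546097 to 547611, RefSeq assembly R64 as for all positions here), a core scaffold protein of box C/D snoRNPs, had 246, 247 and 268 rescaled RPKM in tSH2Δ, against 780.2, 744 and 701 in WT. Its log2 fold change was -1.54 (SE 0.0548, limma adjusted p = 5.02e-08), and -0.96 on RPKM as deposited. NOP1 (YDL014W, chromosome IV, 427364 to 428347), fibrillarin, the RNA methyltransferase of these particles, had 269, 269.5 and 296 in tSH2Δ, against 810.3, 753 and 766 in WT. Its log2 fold change was -1.48 (SE 0.0525, limma adjusted p = 5e-08). NOP58 (YOR310C, chromosome XV, 896825 to 898360), the partner of Nop56 in the core, averaged 194 ± 9.29 in tSH2Δ and 518 ± 25.5 in WT (SD, n = 3 each), and its log2 fold change was -1.41 (SE 0.0516, limma adjusted p = 5.8e-08). The tSH2Δ and WT libraries of these genes were far apart, with no overlap. RRP9, which binds U3 and no other snoRNA, averaged 92.6 ± 0.938 in tSH2Δ and 149 ± 2.75 in WT (SD, n = 3 each), a log2 fold change of -0.68. Within a library, NOP56 had 2.63, 2.69 and 2.91 times the RPKM of RRP9 in tSH2Δ, against 5.23, 5.11 and 4.65 times in WT. Dividing a library by one factor leaves these ratios as they are, but quantile normalization does not, and under it NOP56 stood at -0.80 and RRP9 at -0.42 (log2 fold change). With 3 against 3 libraries the exact permutation test (two-sided) cannot go below its p = 0.1. NOP56 and RRP9 had the lowest and highest fold changes of the U3 snoRNP genes and were paired after these were seen. The test therefore decides nothing for them. SNU13, the remaining core protein of box C/D snoRNPs and no part of the 32, fell by 1.57 on the log2 scale and stood at -0.81 after quantile normalization.

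The UTP-A complex, which binds the start of the precursor first, had 7 genes with log2 fold changes of -1.08 to -0.36 and a median of -0.83. UTP10 (YJL109C, chromosome X, 212000 to 217309), its largest subunit, had 82.0, 83.5 and 89.6 rescaled RPKM in tSH2Δ, against 182, 182 and 179 in WT, which is -1.08 on the log2 scale (SE 0.0403, limma adjusted p = 6.12e-08). NAN1, UTP8, UTP4 and UTP5 followed at -0.87, -0.83, -0.83 and -0.74, and UTP9 at -0.63. UTP15 (YMR093W, chromosome XIII, 454015 to 455556) had 100.4, 101 and 105 in tSH2Δ, against 139, 137 and 119.8 in WT, where replicate 3 was the lowest. Its log2 fold change was -0.36 (SE 0.0586), and it was 0.22 and called higher on RPKM as deposited. UTP10 stood at 0.817, 0.824 and 0.852 times the RPKM of UTP15 in the tSH2Δ libraries, against 1.303, 1.33 and 1.496 times in the WT libraries. UTP10 was thus below UTP15 in each tSH2Δ library and above it in each WT library. The pair holds the lowest and highest fold changes of the complex and was chosen after these were seen. Its exact permutation p = 0.1 (two-sided, the smallest possible) therefore decides nothing.

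The UTP-B complex, which docks with the U3 particle, had 4 genes in the list, all for proteins with WD repeats. Their log2 fold changes were -0.98 for UTP21, -0.73 for UTP13, -0.69 for DIP2 and -0.66 for PWP2. UTP21 (YLR409C, chromosome XII, 934414 to 937233) had 70.8, 72.5 and 79.1 rescaled RPKM in tSH2Δ, against 151, 148 and 142 in WT. On RPKM as deposited 3 of the 4 were called lower and PWP2, at -0.09, was not. UTP18 and UTP6, subunits of this complex outside the list, stood at -0.85 and -0.24 relative to the median gene. On RPKM as deposited UTP18 was called lower (-0.27) and UTP6 higher (0.33).

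The MPP10 complex had the smallest median change of the 6 role groups, -0.50. It joins the U3 RNA to its pairing sites in the precursor, with IMP3 and IMP4 bound to the scaffold MPP10. Their log2 fold changes were -0.54 for IMP4, -0.50 for MPP10 and -0.41 for IMP3. IMP4 (YNL075W, chromosome XIV, 485607 to 486479) had 99.3, 95.7 and 96.6 rescaled RPKM in tSH2Δ, against 137, 145 and 145 in WT. On RPKM as deposited none of the 3 was called lower and IMP3 was called higher, and IMP4 averaged 119 RPKM in tSH2Δ and 116 in WT. After quantile normalization IMP4 and MPP10 were called lower and IMP3, at -0.07, was not.

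Enzymes of the particle spanned most of the range. BMS1 (YPL217C, chromosome XVI, 139620 to 143171), a GTPase, had 65.5, 63.6 and 63.96 rescaled RPKM in tSH2Δ, against 178, 186 and 190.2 in WT. It fell by 1.51 on the log2 scale (SE 0.0372) and had the smallest p of the 32 (limma adjusted p = 1.25e-08). KRE33, the acetyltransferase of small subunit RNA, averaged 71.5 ± 3.08 in tSH2Δ and 175 ± 4.09 in WT (SD, n = 3 each), a log2 fold change of -1.28. ROK1 (YGL171W, chromosome VII, 182390 to 184084), an RNA helicase, had 43.4, 43.3 and 46.8 in tSH2Δ, against 106, 105 and 107 in WT, a log2 fold change of -1.24. EMG1, a methyltransferase of small subunit RNA, was at -0.73. RCL1 (YOL010W, chromosome XV, 307938 to 309041), which resembles RNA cyclases and binds Bms1, had 84.0, 85.3 and 90.5 in tSH2Δ, against 115, 107 and 111 in WT. Its log2 fold change was -0.36 (SE 0.0420, limma adjusted p = 5.79e-05), and 0.22 on RPKM as deposited. The RPKM of BMS1 was 0.780, 0.745 and 0.707 times that of its binding partner RCL1 in the tSH2Δ libraries, against 1.55, 1.74 and 1.71 times in the WT libraries. This pair, too, holds the lowest and highest fold changes of its role group and was chosen after these were seen. Its exact permutation p = 0.1 (two-sided, the smallest possible) therefore decides nothing.

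The remaining 9 scaffold and RNA-binding factors ranged from -1.48 to -0.36. RRP5 (YMR229C, chromosome XIII, 725934 to 731123), an RNA-binding protein needed for both ribosomal subunits, had 99.0, 99.3 and 107 rescaled RPKM in tSH2Δ, against 288, 285 and 282 in WT, which is -1.48 on the log2 scale (SE 0.0393, limma adjusted p = 1.66e-08). UTP20 (YBL004W, chromosome II, 227636 to 235117), a large protein of helical repeats, had 67.3, 68.1 and 72.7 in tSH2Δ, against 193, 190.4 and 186 in WT, which is -1.44 on the log2 scale (SE 0.0399, limma adjusted p = 1.82e-08). Next came ENP1, which stays on the particle into the cytoplasm, at -1.05, ENP2 at -1.04, KRR1, a KH-domain protein, at -0.90 and NOP14 at -0.73. UTP22, of the UTP-C complex, was at -0.58, SOF1 at -0.52 and BFR2 (YDR299W, chromosome IV, 1059627 to 1061231) at -0.36. BFR2 had 83.6, 80.6 and 84.1 in tSH2Δ, against 104, 109 and 106 in WT (SE of the log2 value 0.0357, limma adjusted p = 2.03e-05), and was 0.22 on RPKM as deposited. RRP7, the partner of UTP22 in the UTP-C complex and outside the list, was not called at 0.07, and UTP22 stood at 0.366, 0.373 and 0.379 times the RPKM of RRP7 in tSH2Δ, against 0.597, 0.579 and 0.581 times in WT. In a further pair, RRP5 had 2.28, 2.29 and 2.28 times the RPKM of ROK1 in tSH2Δ, against 2.71, 2.71 and 2.63 times in WT. Pairs of genes set as ratios here were chosen after their values were seen.

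NOP1, NOP56 and NOP58 stood well above the rest in level. Without them, the other 29 averaged 44.5 to 117 rescaled RPKM in tSH2Δ, with a median of 86.1, and 106 to 285 in WT, with a median of 147. Levels were also set relative to the geometric mean of the 32 in the same library, which by construction puts some genes below and others above 0. The largest differences between tSH2Δ and WT on this scale were -0.66 for NOP56, -0.63 for BMS1 and -0.60 for RRP5 and NOP1 on one side, and 0.53 for RCL1 and BFR2 and 0.52 for UTP15 on the other (log2). The SD of the 32 log2 fold changes was 0.37 and their median SE 0.0391.

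Level and fold change went together over all genes. Across the 6307 genes tested, the log2 fold change correlated with log2 mean level over the 6 libraries at r = -0.42 (rho = -0.47), and across the 32 at r = -0.57 (rho = -0.47). Without NOP1, NOP56 and NOP58 the other 29 gave r = -0.28 (rho = -0.30), so the relation in the 32 rests largely on these 3, and the other 37 processome factors described below gave r = 0.07 (rho = 0.20). Genes are not independent replicates, and the level is computed from the same libraries as the fold change. Among all tested genes with a mean level of 64 to 128 rescaled RPKM, 52% of 1501 were called lower and the median fold change (log2) was -0.13, and the 21 processome genes there had a median of -0.73. From 128 to 256 the median was -0.49 over 734 genes, 74.3% of them called lower, and -0.98 over 8 processome genes. From 256 to 512 it was -0.80 over 297 genes, 83.8% of them called lower, where NOP56 and NOP58 stood at -1.54 and -1.41. From 512 to 1024 it was -0.99 over 123 genes, 90.2% of them called lower, where NOP1 stood at -1.48. The part of level in these falls was not tested beyond these values.

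**Figure D3:**
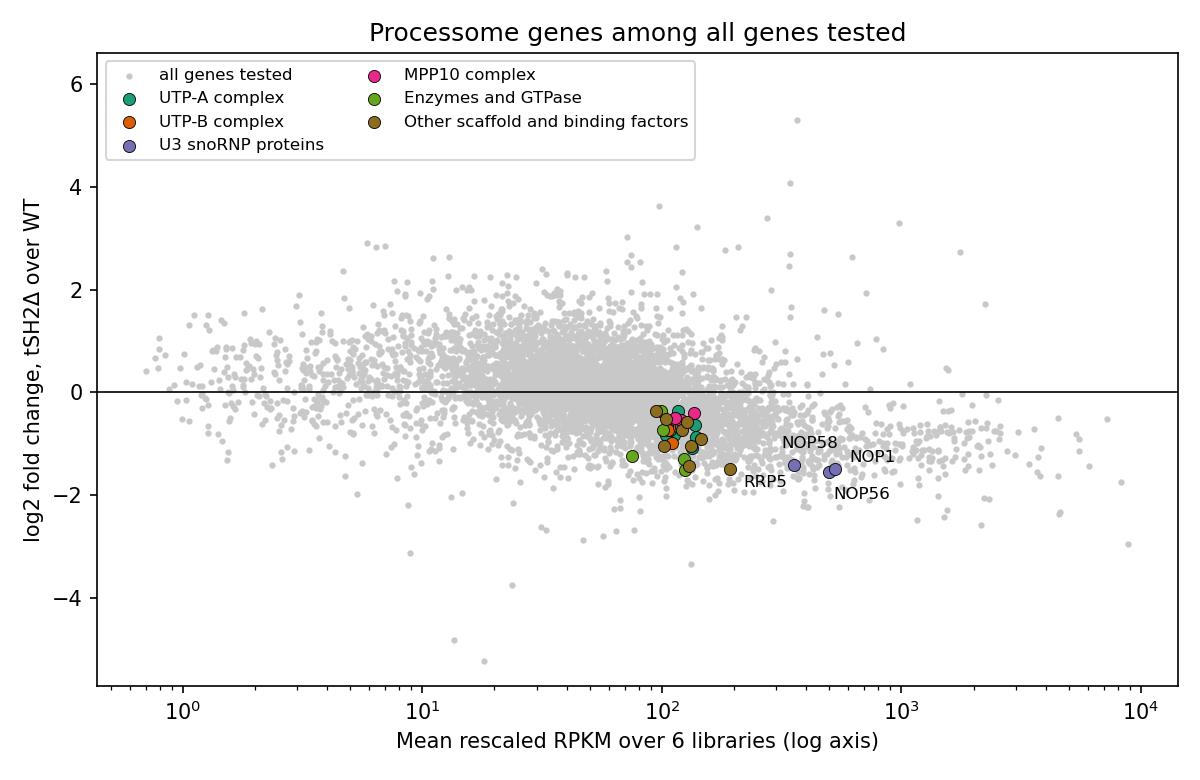
Log2 fold change (tSH2Δ over WT) against mean rescaled RPKM over the 6 libraries (log axis) for the 6307 genes tested (grey) and the 32 processome genes (coloured by role). The cloud of all genes slopes down towards high levels, and the coloured points lie in its lower part between -1.54 and -0.36.

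Gene length, on the log2 scale for every r here, and log2 fold change correlated at r = -0.40 (rho = -0.32) over all 32 genes. Over all genes tested they correlated at r = -0.04 (rho = -0.01). With NOP1, NOP56 and NOP58 left out, a choice made after the data were seen, the other 29 gave r = -0.62 (rho = -0.55), so the size of this value depends on that choice. Length in the 29 also went with differences between tSH2Δ replicates, at r = 0.38 (3 minus 1) and 0.32 (2 minus 1). Between WT replicates r was 0.05 (3 minus 1) and 0.18 (2 minus 1). Single tSH2Δ libraries against the WT mean gave r = -0.64, -0.62 and -0.60. The 5 longest of the 29 (BMS1, UTP22, RRP5, UTP10 and UTP20, 3551 to 7481 bases) had a median of -1.44, and the 5 shortest (IMP3, EMG1, IMP4, KRR1 and RCL1, 551 to 1103 bases) a median of -0.54. UTP22, with 3713 bases and -0.58, went against this order. Length and level also went together in the 29 (r = 0.29). In the other processome factors, described next, length and fold change correlated at r = -0.22 over 37 genes, and in the factors of the large subunit at r = -0.20 over 43.

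**Figure D4:**
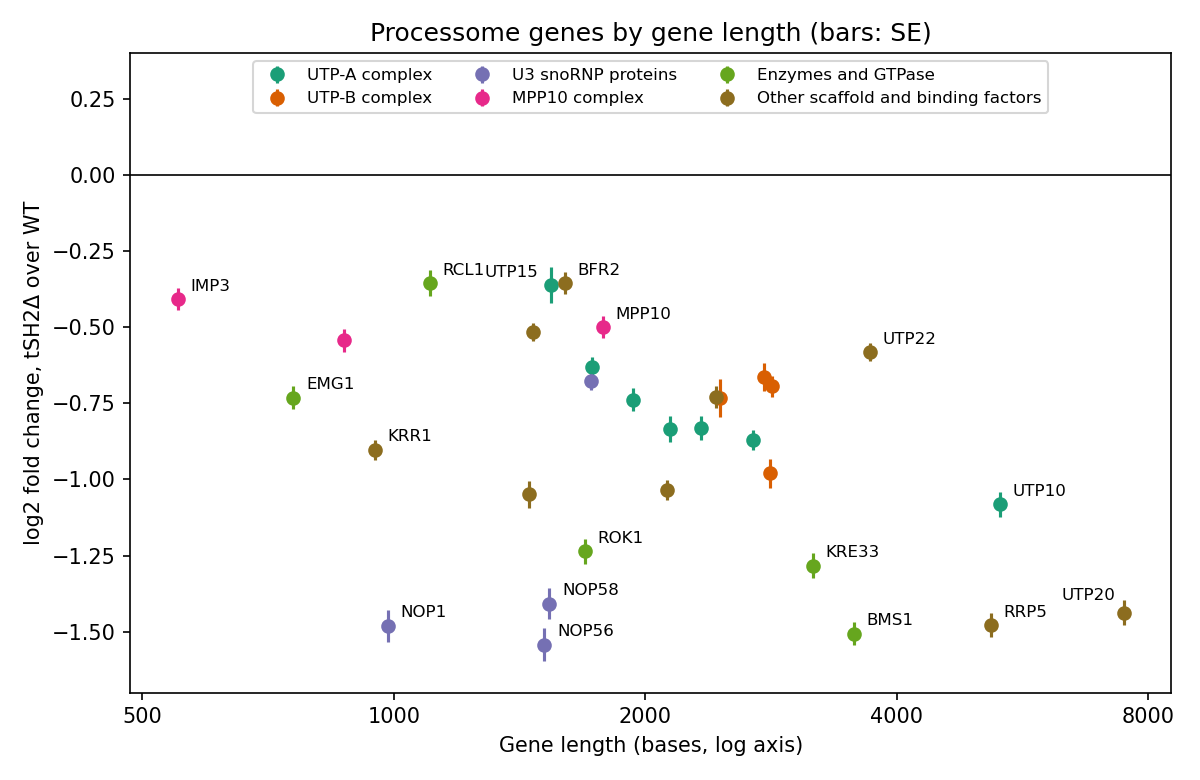
Log2 fold change (tSH2Δ over WT, bars are SE) of the 32 processome genes against gene length in bases (log axis), coloured by role. Among genes other than NOP1, NOP56 and NOP58, the short IMP3 and RCL1 lie near the top and the long UTP20, RRP5 and BMS1 near the bottom, with UTP22 apart.

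Another 37 processome factors lie outside the list. Among them 32 were called lower, 2 higher and 3 neither, where 41.9% of all genes tested were lower and 41.6% higher, and their median log2 fold change was -0.50. UTP30 (-1.796) and the helicase gene DHR2 (-1.77), both on chromosome XI, fell furthest, and ESF1 (0.16) and the nuclease gene FCF1 (0.10) rose. On RPKM as deposited 13 were called lower and 18 higher, where 17.3% of all genes tested were called lower and 72.4% higher. None of the 32 lies on chromosome XI, whose 342 genes tested had a median log2 fold change of -0.84, against 0.04 for the 5965 genes on other chromosomes. The part of that shift in the values of chromosome XI genes named here was not tested. With chromosome XI left out of scaling and fitting, the median of the 32 was -0.82.

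The counts of the following lists stand against the same 41.9% lower and 41.6% higher of all genes tested. Of 12 late maturation factors of the small subunit 9 were lower and 1 higher, led by LTV1 (-1.77, chromosome XI) and RRP12 (-1.25), while the kinase gene HRR25 rose (0.11). Of 11 genes for snoRNP assembly factors and box H/ACA proteins, the pseudouridylation machinery, 8 were lower and 1 higher, with GAR1 at -1.33, CBF5 at -1.17 and the assembly factor gene RSA1 at 0.41. Of 11 RNA polymerase I genes 8 were lower and 3 higher. The largest subunit gene RPA190 (-1.31) and the initiation factor gene RRN3 (-1.26, chromosome XI) fell, and RRN11 (0.12) and RRN6 (0.12) of the core factor rose. After quantile normalization RRN11 stood at 0.04 and RRN6 at 0.02. Of 43 assembly factors of the large subunit 41 were lower and 0 higher (median -0.999), with EBP2 (-2.21) and RPF2 (-2.12), both on chromosome XI, the lowest. Of 56 small subunit ribosomal protein genes 54 were lower and 0 higher (median -0.93). After quantile normalization 22 of the 56 were lower and 16 higher (median -0.09), while the 32 processome genes had a median of -0.57 and 30 were still lower. Under that scaling 41.1% of all genes tested were lower and 40% higher. Ribosomal protein genes often come as near-identical pairs whose reads can be misassigned, so values of single genes in this list are uncertain.

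Of 12 regulators of these genes 6 were higher and 6 lower, a split near the 41.6% higher and 41.9% lower of all genes tested. DOT6 and TOD6 encode related repressors that bind the same promoter element of ribosome biogenesis genes, and they moved in opposite directions. DOT6 averaged 52.0 rescaled RPKM in tSH2Δ and 29.2 in WT, a difference of 0.82 on the log2 scale (SE 0.0775, limma adjusted p = 1.42e-05). TOD6 averaged 43.6 in tSH2Δ and 78.8 in WT, a difference of -0.84 on the log2 scale (SE 0.0425, limma adjusted p = 3.11e-07). Both kept their direction under the 4 scalings. STB3, another repressor of the regulon, rose by 0.29, and SFP1, an activator, by 0.15. The kinase gene SCH9 (-0.37) was lower relative to the median gene and stood at 0.21 on RPKM as deposited. CRF1, a corepressor of ribosomal protein genes, rose by 0.89, and RAP1, which binds the promoters of those genes, fell by 0.77. FHL1 (0.09) and its coactivator gene IFH1 (-0.36) went apart, the histone deacetylase gene RPD3 was higher (0.20), and the general regulatory factor genes REB1 (-0.45) and ABF1 (-0.66, chromosome XI) were lower. On RPKM as deposited IFH1 (0.22) and REB1 (0.13) changed sign, as SCH9 did, and ABF1 (-0.08) did not. After quantile normalization STB3 stood at 0.06 and FHL1 at 0.004, against 0.23 for SFP1, 0.18 for RPD3 and 0.53 for CRF1.

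**Figure D5:**
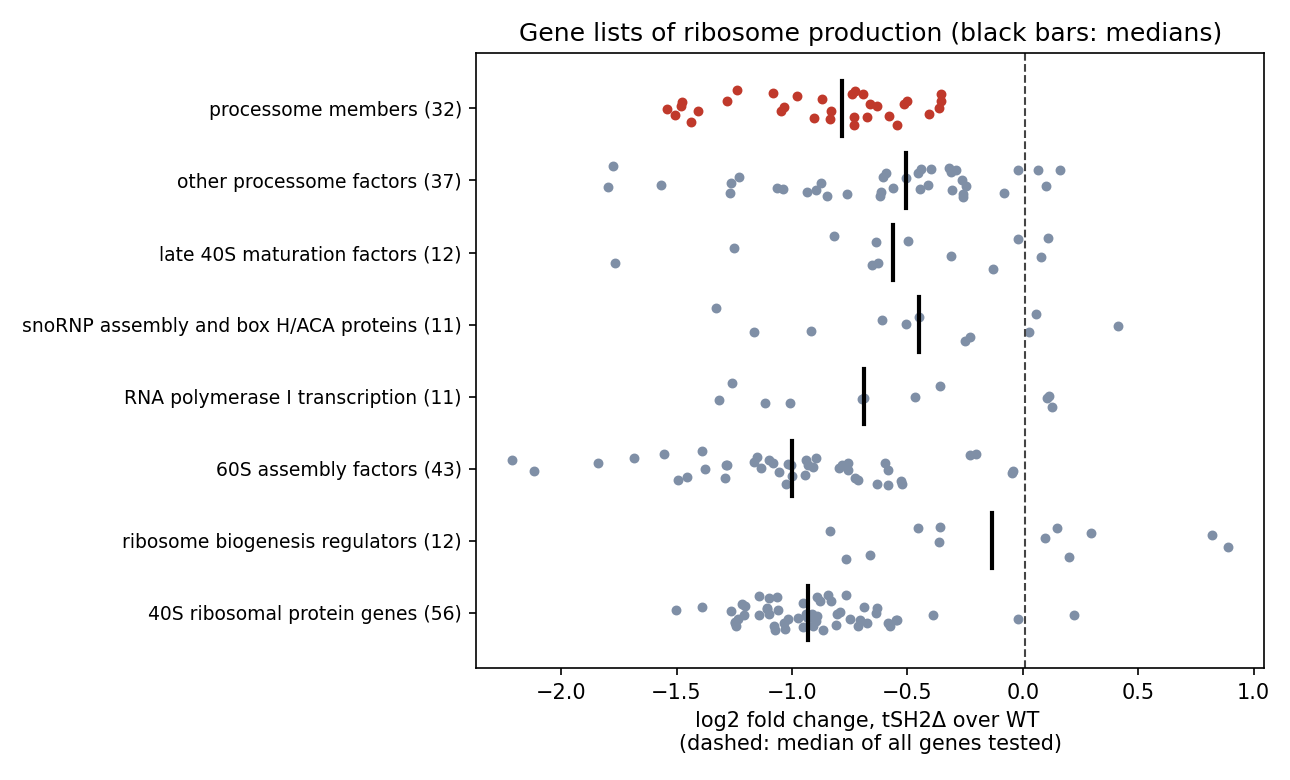
Log2 fold change (tSH2Δ over WT) of each gene in the processome list (red) and in 7 other lists of ribosome production (grey-blue), with black bars at the medians and a dashed line at the median of all genes tested. The processome median is -0.78, those of large subunit assembly factors and small subunit ribosomal proteins are -0.999 and -0.93, and the regulators spread on both sides of the dashed line.

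The genes upstream of the processome genes were looked up by position. The RefSeq table lists no gene that overlaps any of the 32, although 674 IDs of the deposited table are not in it and were not placed. Of the 12 divergent upstream neighbours 7 were lower, 3 higher and 2 neither (median -0.19), where 41.9% of all genes tested were lower and 41.6% higher. Beside BMS1 (-1.51) the divergent gene YPL216W was higher (0.40), beside UTP8 (-0.83) the splicing factor gene SYF2 was higher (0.39), and beside NOP1 (-1.48) the divergent TSC13, a gene of fatty acid elongation, was lower (-0.59). On RPKM as deposited YPL216W stood at 0.95, SYF2 at 0.96 and TSC13 at -0.005. Of 17 upstream neighbours on the same strand 11 were lower and 5 higher (median -0.30).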

How the data were processed

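Per the labels' protocols, total RNA was extracted with acid phenol, treated with DNase, depleted of rRNA with a stranded kit and sequenced as single-end reads of 50 bases. The authors deposited RPKM values per gene and library, with gene lengths. Their second table gives, per the file headers, the log2 ratio of mean RPKM plus 1 and the adjusted p-value of a DESeq2 test for selected genes. The submitters' processing notes name build sacCer3 and, among other tools, HTSeq 0.6.1, Bowtie 1.1.2 and Trim Galore 0.4.1, without saying which was used for RNA. For strand and multi-mapped reads, the counting rule is not given in these sources.

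Multiplied by gene length, 100% of the RPKM values came out as whole reads (tolerance 0.01), which gave the totals, 84.6% to 87.6% of them in genes. A row naming no gene (0.513% to 0.926% of reads) was left out. Replicates differed beyond sampling noise (chi-square per gene 3.08 to 18.2). Libraries were scaled by median-ratio factors (1.21 to 1.24 in tSH2Δ, 0.813 to 0.829 in WT), genes that reached 1 RPKM in 3 or more libraries were kept, and log2(RPKM + 1) was fitted with limma 3.58.1 (R 4.3.3, intensity trend), two-sided, with Benjamini-Hochberg adjustment over all genes tested. The fit was tested on simulated data in which few genes changed, as many up as down, so the choice of scaling was not tested by it. Names and coordinates (1-based) are from RefSeq, assembly R64.

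The genes and lists were chosen with earlier results of these data known. Any of the 32 could be named; of other lists up to 2 called genes with the largest fall and rise, plus regulators and neighbours. The genes SNU13, RRP7, UTP18 and UTP6 were named after their values were seen. Alternatives covered pseudocount, filter, scaling, chromosome XI, a replicate block, leaving out each library, and voom.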

Additional observations from a re-analysis of the deposited data

How the results depend on the processing

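Scaling was the choice that moved results most. The median log2 fold change of the 32 processome genes was -0.78, and -0.21 with RPKM as deposited, -0.32 with total-sum scaling without ribosomal protein genes, -0.57 after quantile normalization, -0.82 without chromosome XI genes and -0.76 with a pseudocount of 5. With RPKM as deposited 22 of the 32 were called lower and 4 higher, 1091 of all genes lower and 4565 higher. With total-sum scaling these counts were 25, 2, 1314 and 4259. Called lower with RPKM as deposited and with total-sum scaling were 0 and 0 of the MPP10 complex (3 before), 13 and 16 of the other processome factors (32), 3 and 4 of the snoRNP assembly and box H/ACA genes (8) and 2 and 3 of the regulators (6). For the late maturation factors the count was 3 with RPKM as deposited (9). For the small subunit ribosomal protein genes it was 22 after quantile normalization (54). These lists hold 3, 37, 11, 12, 12 and 56 genes in this order. Among all genes tested 17.3% were lower on deposited RPKM, 20.8% under total-sum scaling and 41.1% under quantile normalization (41.9% before). On deposited RPKM the regulators, at 16.7%, stood near that share. The late maturation factors stood at 25%, the snoRNP assembly and box H/ACA genes at 27.3% and the other processome factors at 35.1%. On deposited RPKM, fold changes turned positive (log2), to 0.22 for UTP15, RCL1 and BFR2, 0.17 for IMP3, 0.0779 for MPP10, 0.0615 for SOF1 and 0.0353 for IMP4. With total-sum scaling it turned to 0.11 for UTP15, RCL1 and BFR2 and 0.0623 for IMP3. The share of summed RPKM in tSH2Δ over WT was 0.733, and 0.690 without ribosomal protein genes in the total.

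Without each library in turn the median of the 32 lay between -0.82 and -0.77, and all 32 were called lower each time. In these fits 40.1% to 41.4% of all genes tested were called lower. With the replicate block, too, 32 were called lower (median -0.78), and 32 with voom on whole reads, an alternative chosen after seeing the data (median -0.79). Of all genes tested, 40.2% were called lower with the block and 42% with voom. Deviations from the group mean correlated at r = -0.25, -0.09 and -0.28 between same-numbered libraries. Between differently numbered libraries of the groups r was -0.08 to 0.27. Deviations of 3 libraries from their own mean sum to 0, so these values cannot decide whether the numbers pair libraries. The counts of reads behind each gene were high, so depth limited none of the 32 calls. The planned edgeR and DESeq2 fits and the promoter motif counts were not run.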
